A study of Venturia canescens with 18 samples.

Results

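In 1 of the 3 pools of female wasp heads courted by a brother, 209 of 16752 loci stood far above every other pool of the study. They were selected on the measured values themselves. A locus was a member when brother pool 1 held at least 2 CPM (counts of the locus per 1000000 counts of the pool) and at least 4 times the level of the highest of the other 8 pools. Every statement on how high these loci were in brother pool 1 therefore describes the choice and carries no test. The choice also used the other 8 pools, through a limit on the highest of them. Within that limit it did not set how the loci varied among these pools or whether they varied together. Nor did it set whether the groups of the study differed in them once brother pool 1 was set aside.

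The animals were newly emerged virgin females of Venturia canescens, a parasitoid wasp derived from wild wasps of southern French orchards and reared on the moth Ephestia kuehniella. Females were boxed for no more than 10 min with a brother (the incompatible male, brother pools) or an unrelated male (the compatible male, unrelated pools). Other females had no male (isolated pools, the control). Each group had 3 pools of heads, and each pool was sequenced as 2 technical replicates, here summed. The labels name 10 heads per condition without saying whether this is per pool. They do not give the family or day behind a pool, and a p-value here reflects the spread among these pools, which may be technical.

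In this wasp, as in other hymenopterans, fertilised eggs usually become females and unfertilised eggs become males. In this wasp, sex depends on whether an embryo carries different alleles at a sex-determining locus. Matings between relatives can then yield diploid males, which is the reason given in the field for females avoiding their brothers. A head pool mixes brain, eyes, muscle, glands and fat tissue of several females, so more cells of a kind and more RNA per cell cannot be told apart in any value below. The table names loci only by XLOC identifiers and pairs them with no gene names, and 0 of them were found in the RefSeq gene list for this wasp. Known roles, the marker genes of the head and gene sequences were therefore not used here, and loci are described by their values.

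The pools held 68571374 to 73839115 counts in the brother group, 65809907 to 103527471 in the unrelated group and 62341897 to 84765233 in the isolated group. A floor of 3 counts lay between 0.029 and 0.0481 CPM, and intervals and floors cover counting error only. Brother pool 1, with 73839115 counts, was neither the deepest nor the shallowest pool. The same rule applied to each other pool in turn found 4 loci in brother pool 2, 6 in brother pool 3, 1 in unrelated pool 1, 2 in isolated pool 2 and 0 in unrelated pools 2 and 3 and isolated pools 1 and 3. For 10868 loci that were no members and had a median of at least 1 CPM in the other 8 pools, the median log2 ratio of brother pool 1 to that median was 0.05, with the 5th percentile at -0.59 and the 95th at 1.28.

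The members were mostly of low abundance. In brother pool 1 their levels ran from 2.03 to 201 CPM with a median of 4.36 CPM, and 95 of them reached 5 CPM, 16 reached 20 CPM and 2 reached 100 CPM. Together they made up 0.207% of the counts of brother pool 1, or 2071 CPM. The 2 most abundant members held 18.4% of that sum and the top 50 held 67.7%. The smallest count of any member in brother pool 1 was 150, so none of the excess rested on a handful of reads.

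In the other 8 pools the members were present at low levels rather than absent. Their mean over the 8 pools ran from 0.0886 to 28.2 CPM with a median of 0.511 CPM. A single member had 0 counts in a single pool, isolated pool 3, and no other zero occurred among the 209 loci. The ratio of brother pool 1 to the highest other pool had a median of 5.36, with the middle 50% between 4.58 and 7.05 and a highest value of 15.7. Of the 209 members, 126 reached a ratio of 5, 38 reached 8 and 12 reached 12.

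**Figure D1:**
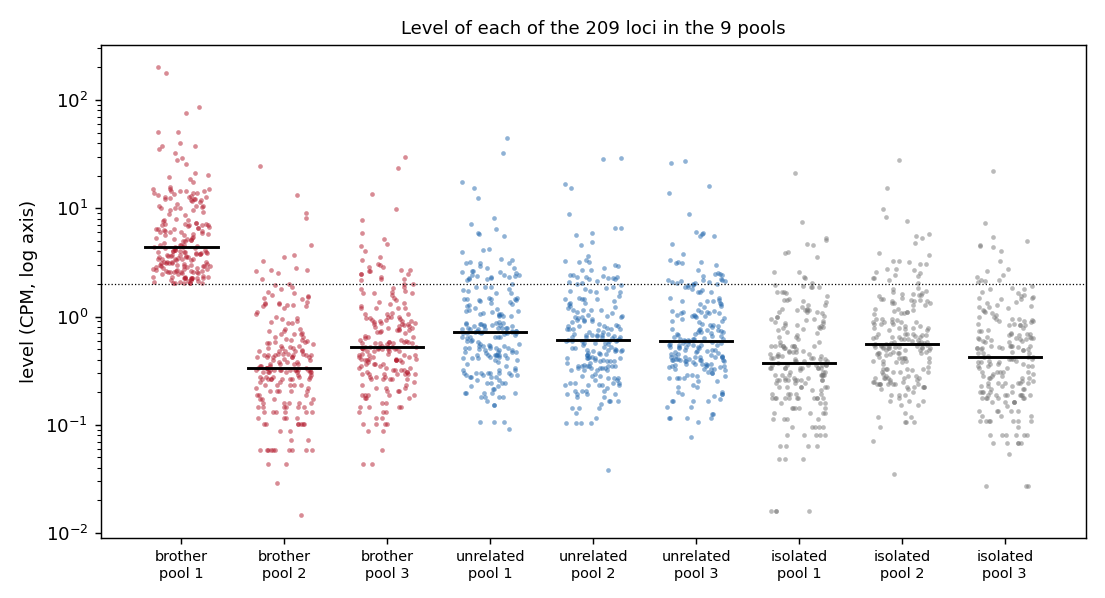
Level of each of the 209 members (points, CPM on a log axis) in the 9 pools, with the median as a black line and the dotted line at 2 CPM, the lowest level the rule allowed in brother pool 1. The medians are 4.36 CPM in brother pool 1 and 0.335 to 0.714 CPM elsewhere, and the one value of 0, in isolated pool 3, is not drawn.

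The edge of the set was not a natural gap. The nearest members inside the ratio limit stood at 4.01 and 4.03 times the highest other pool, and the nearest loci outside at 3.97 and 3.96. At the limit on level, 2 members stood at 2.03 CPM in brother pool 1, and 2 loci with ratios of 5.70 and 4.09 stood just outside at 1.99 CPM. Under a ratio of 3 the set held 368 loci.

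XLOC_010578 was the most abundant member in brother pool 1. It was at 201 CPM in brother pool 1, 13.3 and 23.7 CPM in brother pools 2 and 3, 32.5, 28.3 and 26.1 CPM in unrelated pools 1 to 3, and 7.54, 15.3 and 7.26 CPM in isolated pools 1 to 3. Brother pool 1 was 6.19 times the next pool, and the unrelated pools lay above all other remaining pools. XLOC_016666 was at 179 CPM in brother pool 1, 24.5 and 29.5 CPM in brother pools 2 and 3, 44.1, 29.1 and 27.3 CPM in unrelated pools 1 to 3, and 21.1, 27.9 and 22.0 CPM in isolated pools 1 to 3. In this locus the ratio was 4.07, close to the limit, and the 3 groups overlapped outside brother pool 1.

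The largest ratio belonged to XLOC_014346, at 10.4 CPM in brother pool 1, 0.335 and 0.481 CPM in brother pools 2 and 3, 0.608, 0.553 and 0.666 CPM in unrelated pools 1 to 3, and 0.385, 0.602 and 0.364 CPM in isolated pools 1 to 3. Its excess rested on 771 counts against 23 to 69 counts in the other pools. XLOC_002760 followed with a ratio of 14.8, at 9.14 CPM in brother pool 1, 0.335 and 0.335 CPM in brother pools 2 and 3, 0.532, 0.489 and 0.618 CPM in unrelated pools 1 to 3, and 0.192, 0.378 and 0.27 CPM in isolated pools 1 to 3. In the second of these the 3 unrelated pools were the highest of the 8.

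The excess was present in both technical replicates of brother pool 1. All 209 members lay above every other pool in the first and again in the second, with median ratios of 5.01 and 5.18 to the highest other library of the same round. The order of the members by level in brother pool 1 had a Spearman correlation of 0.936 between the rounds. When the rule was applied to the first round alone it chose 189 loci, and all 189 were above every other pool in the second round, 186 of them over 2-fold, with a median ratio of 4.97. When it was applied to the second round alone it chose 194, of which 193 were over 2-fold above every other pool in the first, with a median ratio of 5.03. Loci chosen by each round and passing the full rule in the other numbered 136. The rounds carry different run and lane names and share the RNA of the pool, so they bear on sequencing and not on the heads.

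Between the rounds the members shifted more than other loci in some pools. The median log2 difference, second minus first technical replicate, was 0.08 for the members and -0.03 for the other loci of at least 2 CPM in brother pool 1. It was 0.31 and -0.03 in brother pool 2, 0.18 and -0.06 in unrelated pool 1, and -0.09 and -0.07 in unrelated pool 3. Many members had few counts per library outside brother pool 1, and the part of depth in these shifts was not tested.

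The 8 remaining pools were not alike in their level of the members. The summed level was 176 and 262 CPM in brother pools 2 and 3, 357, 303 and 298 CPM in unrelated pools 1 to 3, and 171, 253 and 178 CPM in isolated pools 1 to 3. All 3 unrelated pools thus lay above the other 5, and isolated pool 2 and brother pool 3 lay above the remaining pools of their own groups. The same pools were high and low in each technical replicate, where the sums were 157 and 265 CPM in the first and 188 and 259 CPM in the second for brother pools 2 and 3. For unrelated pools 1 to 3 the sums were 327, 296 and 303 CPM in the first and 377, 309 and 288 CPM in the second. For isolated pools 1 to 3 they were 162, 252 and 167 CPM in the first and 176, 253 and 185 CPM in the second. Unrelated pool 1 was highest of the 8 for 89 members, while brother pool 2 was lowest for 84, isolated pool 1 for 57 and isolated pool 3 for 47. Unrelated pool 1, with the highest sum, had 65809907 counts, the second fewest of the 9 pools. Isolated pool 1, with the lowest sum, had the fewest at 62341897, and isolated pool 2 had both the most counts of its group, 84765233, and its highest sum. The part of depth in these sums was not tested.

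The pattern was also present in the weakest members. The 103 members with a mean under 0.5 CPM in the 8 pools summed to 344 CPM in brother pool 1. They summed to 21.7 and 33.2 CPM in brother pools 2 and 3, 43.0, 36.4 and 37.5 CPM in unrelated pools 1 to 3, and 22.4, 34.8 and 24.0 CPM in isolated pools 1 to 3. Brother pool 2 and isolated pools 1 and 3 were again low, and the sums rest on 1398 to 3880 counts per pool.

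How far the members moved together was described over the 106 members with a mean of at least 0.5 CPM in the 8 pools, on the scale log2(CPM + 0.5), each locus centred on its own mean. Members share libraries and depth and are not replicates, so these values are given without a p. The first principal component held 68.6% of their variance and the second 16.3%. For all 12480 loci with a mean of at least 0.5 CPM these shares were 41.5% and 25.0%. Those loci include the members and have no upper limit on level, while only 25 members reached a mean of 2 CPM. Comparisons with all loci, here and below, are thus not matched for abundance. The median Pearson r between 2 members over the 8 pools was 0.562, and 91.1% of 5565 pairs were positive, against a median of 0.0857 and 55.8% positive pairs for all loci. On the first component 103 of 106 members had the same sign. Its scores were -0.383 and 0.109 in brother pools 2 and 3, 0.50, 0.322 and 0.32 in unrelated pools 1 to 3, and -0.471, 0.00628 and -0.405 in isolated pools 1 to 3. The members thus varied largely along one axis, with unrelated pools at one end and isolated pools 1 and 3 and brother pool 2 at the other.

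The common movement did not rest on the difference between groups alone. With each locus centred on its group means, the first component held 65.8% of the members' variance and the median pair r was 0.555, against 32.8% and 0.0398 for all loci. Pools of the same group also lay apart. The median deviation of the members from their own mean over the 8 pools was -0.38 and 0.07 on the log2 scale in brother pools 2 and 3. In isolated pools 1 to 3 it was -0.29, 0.05 and -0.22. These deviations still include the difference between groups. Of the 106 members, 8 lay above their own mean in brother pool 2 and 63 in brother pool 3, 98, 90 and 89 in unrelated pools 1 to 3, and 19, 69 and 23 in isolated pools 1 to 3. Among all loci with a mean of at least 0.5 CPM, 31.4% and 38.1% lay above their own mean in brother pools 2 and 3. The shares were 56.3%, 64.9% and 63.3% in unrelated pools 1 to 3, and 47.3%, 64.7% and 51.5% in isolated pools 1 to 3. The members' share in isolated pool 2, 65.1%, was thus near that of all loci.

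Each technical replicate gave the same picture at a lower strength. The first component held 59.9% in the first and 59.8% in the second, and the median pair r was 0.488 and 0.457. A member's profile in one round correlated with its profile in the other at a median r of 0.619, and 66 of 106 members exceeded 0.5, against a median of 0.779 over all loci. The part of the members' variation that both rounds shared, taken as the covariance between their profiles, placed 82.4% on its first component and 15.5% on its second. For all loci these shares were 46.4% and 26.5%. This last measure was chosen after the data were seen.

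**Figure D2:**
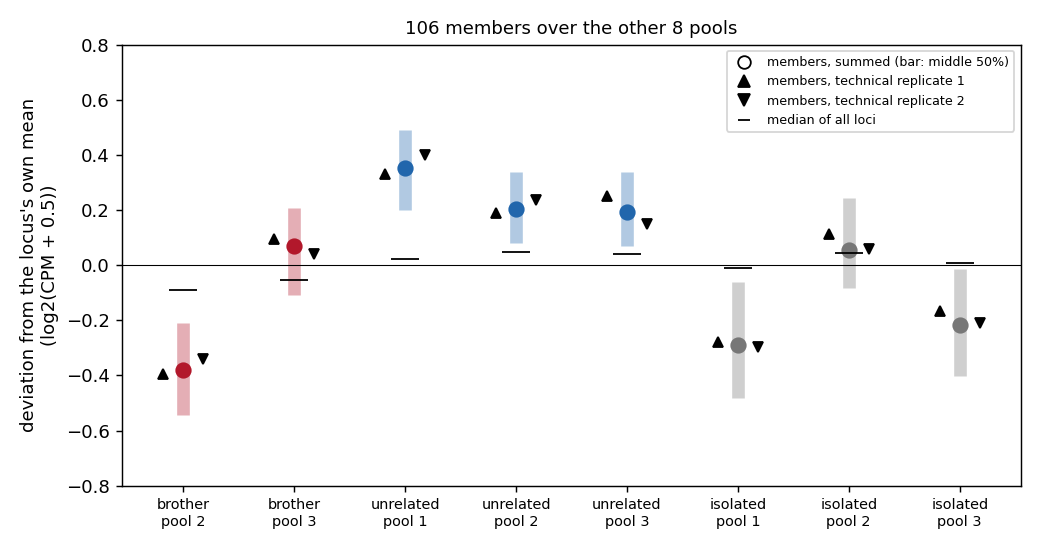
Deviation of 106 members from their own mean over the 8 pools other than brother pool 1, as log2(CPM + 0.5). Circles are medians over members, bars span the middle 50%, triangles are the 2 technical replicates and dashes the median of all 12480 loci. The 3 unrelated pools sit at 0.35, 0.20 and 0.19, brother pool 2 at -0.38, and isolated pools 1 and 3 at -0.29 and -0.22.

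The second component marked a further, weaker pattern. Its scores were 0.692 and 0.332 in brother pools 2 and 3, -0.075, 0.00816 and 0.0862 in unrelated pools 1 to 3, and -0.229, -0.49 and -0.324 in isolated pools 1 to 3. It therefore set brother pools against isolated pools, and 34 of 106 members had a positive sign on it. Members were next grouped by their profiles in the first technical replicate, by average linkage on 1 minus r with groups separated at 0.5. This gave 11 groups, of which 3 had at least 10 members and held 87 of the 106, and the remaining 19 members fell into 8 groups of at most 5.

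The first group held 48 members and 1204 of the 2071 CPM that all members summed to in brother pool 1. Its median pair r was 0.758 in the first technical replicate, where it was formed, and 0.723 in the second, which had no part in forming it. Its summed level was 108 and 160 CPM in brother pools 2 and 3, 225, 189 and 181 CPM in unrelated pools 1 to 3, and 83.4, 132 and 87.4 CPM in isolated pools 1 to 3. Unrelated pools were highest, brother pools 2 and 3 lay between, and isolated pools 1 and 3 were lowest. XLOC_012664, one of the 2 members nearest its mean profile, was at 13.2 CPM in brother pool 1, 1.35 and 1.81 CPM in brother pools 2 and 3, 2.43, 2.20 and 2.11 CPM in unrelated pools 1 to 3, and 0.754, 1.59 and 1.08 CPM in isolated pools 1 to 3. The other, XLOC_015988, was at 37.8 CPM in brother pool 1, 2.69 and 4.01 CPM in brother pools 2 and 3, 8.07, 6.56 and 5.57 CPM in unrelated pools 1 to 3, and 1.88, 3.67 and 2.33 CPM in isolated pools 1 to 3. In both, every unrelated pool lay above every other pool but brother pool 1.

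The second group held 26 members, with a median pair r of 0.676 in the first technical replicate and 0.414 in the second. Over all 106 members the median pair r in the second was 0.457. In the round that did not form it, this group thus held together no better than the members at large. It summed to 184 CPM in brother pool 1. Elsewhere it summed to 13.8 and 21.8 CPM in brother pools 2 and 3, 35.8, 29.8 and 28.1 CPM in unrelated pools 1 to 3, and 22.0, 32.7 and 24.4 CPM in isolated pools 1 to 3. Here the isolated pools lay at or above brother pools 2 and 3, unlike in the first group. XLOC_005427 was at 6.96 CPM in brother pool 1, 0.262 and 0.569 CPM in brother pools 2 and 3, 1.08, 1.00 and 0.618 CPM in unrelated pools 1 to 3, and 0.577, 1.11 and 0.85 CPM in isolated pools 1 to 3. XLOC_003466 was at 12.3 CPM in brother pool 1, 0.874 and 1.72 CPM in brother pools 2 and 3, 2.63, 2.25 and 2.01 CPM in unrelated pools 1 to 3, and 0.834, 2.52 and 1.90 CPM in isolated pools 1 to 3. In both loci isolated pool 2 was within the range of the unrelated pools or above it.

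The third group held 13 members, with a median pair r of 0.652 and 0.365 in the first and second technical replicates. The second value was also below the 0.457 of all 106 members in that replicate. It summed to 181 CPM in brother pool 1, 15.4 and 22.6 CPM in brother pools 2 and 3, 29.3, 26.9 and 27.1 CPM in unrelated pools 1 to 3, and 24.9, 30.5 and 23.8 CPM in isolated pools 1 to 3. Apart from a low brother pool 2 the sums lay between 22.6 and 30.5 CPM. XLOC_007339, near its mean profile, was at 13.9 CPM in brother pool 1, 1.25 and 2.01 CPM in brother pools 2 and 3, 3.10, 2.78 and 2.18 CPM in unrelated pools 1 to 3, and 2.31, 3.03 and 2.62 CPM in isolated pools 1 to 3. The separation of the second group from the third did not hold in the second technical replicate. Their mean profiles correlated at 0.711 in the first round and 0.985 in the second, while those of the first and second groups correlated at 0.589 and 0.65.

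**Figure D3:**
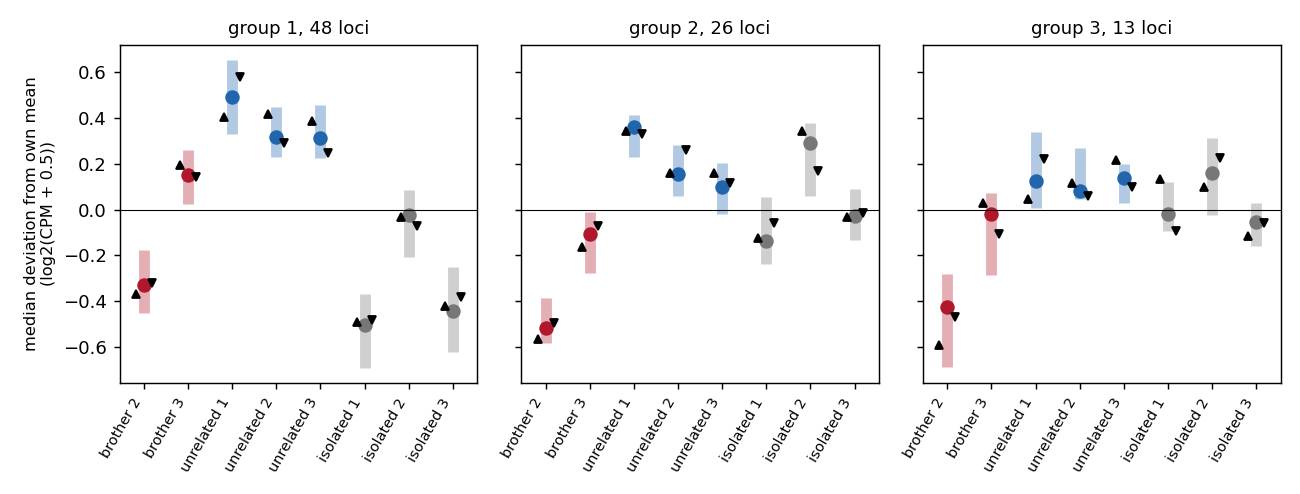
Median deviation from the own mean, as log2(CPM + 0.5), of the 3 groups of members (48, 26 and 13 loci) in the 8 pools other than brother pool 1. Circles are summed counts, bars the middle 50% of members and triangles the 2 technical replicates. Isolated pools 1 and 3 sit at -0.50 and -0.44 in the first group and within 0.14 of 0 in the others, while brother pool 2 is low in all 3 (-0.33, -0.51 and -0.42).

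The next question was whether the members kept one ratio to each other from pool to pool, as loci read from a single admixed source of fixed composition and from nothing else would. The measured levels kept much of the order of the members but not one ratio. A single source added to the females' own levels need not keep one ratio either, so the number of sources was not tested by this. Across the 209 members the Spearman correlation of the level with that in brother pool 1 was 0.836 and 0.883 in brother pools 2 and 3, 0.888, 0.877 and 0.90 in unrelated pools 1 to 3, and 0.753, 0.808 and 0.765 in isolated pools 1 to 3. Among the other 8 pools it ran from 0.811 to 0.936 over 28 pairs. For all loci with at least 2 CPM in brother pool 1 the correlations with that pool were 0.958 to 0.98, over a wider range of levels. The 3 isolated pools thus kept the order of brother pool 1 less well than the other 5.

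The median member stood at 7.34% and 11.1% of its level in brother pool 1 in brother pools 2 and 3, at 15.5%, 13.3% and 13.7% in unrelated pools 1 to 3, and at 7.93%, 11.9% and 8.57% in isolated pools 1 to 3. The rule caps these shares from above. Among the 16 members with at least 20 CPM in brother pool 1, unrelated pool 1 held between 8.28% (exact 95% interval of the ratio of counts, 7.15% to 9.55%) and 24.6% (22.8% to 26.6%) of the level of brother pool 1. These loci were picked as the lowest and highest of the 16, and the intervals cover counting error only, so their separation is no test. Taken above the mean of the isolated pools, unrelated pool 1 held between 1.43% and 17.0% of the excess of brother pool 1 for the same 16 members, with a median of 7.48% and all 16 above the isolated mean. In brother pool 2 the corresponding range was -9.59% to 3.08%, with 7 of 16 above the isolated mean. Over all 209 members, 58 and 138 were above the isolated mean in brother pools 2 and 3, and 182, 161 and 166 in unrelated pools 1 to 3. In isolated pools 1 to 3, which make up that mean, 50, 187 and 60 were above it. Of the 16 members, 1, 15 and 2 were above it in isolated pools 1 to 3. How many sources these ratios reflect was not tested, since the females' own level of each locus is not known.

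The profile of the members over the 8 pools was shared by loci with a smaller excess. Loci with at least 2 CPM in brother pool 1 and a mean of at least 0.5 CPM elsewhere were sorted by the ratio of brother pool 1 to the highest other pool, and each was correlated over the 8 pools with the mean profile of the 106 members, a member being left out of its own mean. The median r was 0.799 for the members and 0.785 for 136 loci with a ratio of 3 to 4. It was 0.754 for 411 loci at 2 to 3, 0.781 for 507 loci at 1.5 to 2 and 0.639 for 2947 loci at 1 to 1.5. For 5811 loci at 0.5 to 1 it was -0.0239, and for 191 loci under 0.5 it was -0.293. The members were thus the far end of a larger number of loci that were high in brother pool 1 and that varied in the same way among the other pools. Of the 106 members, 87 exceeded an r of 0.5 with the mean of the others, 53 exceeded 0.8 and 1 was below 0.

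**Figure D4:**
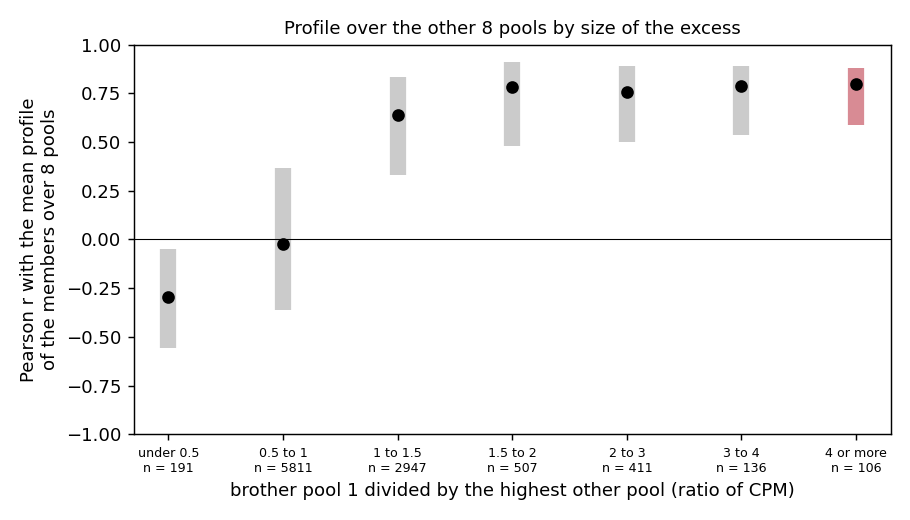
Pearson r of each locus with the mean profile of the members over the 8 other pools, by the ratio of brother pool 1 to the highest other pool; points are medians, bars the middle 50% of loci, and the red bar holds the 106 members. The median is -0.293 for ratios under 0.5, -0.0239 for 0.5 to 1 and between 0.639 and 0.799 for all higher ratios.

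Whether the study's groups differed in these loci was tested without brother pool 1, by the quasi-likelihood F-test of edgeR over all loci of the 8 pools, with p-values adjusted over the 15533 loci tested. Of the 209 members, 206 passed the filter on low counts. Fitting 2 brother pools, 3 unrelated pools and 3 isolated pools, the common biological coefficient of variation was 13.7%. The rule limited the highest of these 8 pools, which was unrelated pool 1, 2 or 3 for 89, 28 and 29 members. The loci at large carry no such limit, and its part in the contrasts below was not tested.

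After courtship by an unrelated male, 20 of 206 members were higher than in isolated pools (edgeR adjusted p under 0.05), or 9.71% of those tested, where 2.82% of all loci were called higher. None was called lower, where 2.38% of all loci were. DESeq2 gave an adjusted p to only 87 members and called 30 of them higher and 0 lower. It called 1093 of 11913 loci higher and 803 lower. At an unadjusted p under 0.05 by edgeR, 0 members were lower and 64 were higher. Over all loci tested, 12.7% were higher and 10.99% lower at an unadjusted p under 0.05 by edgeR. The median log2 difference was 0.46 over the members tested and -0.01 over all loci, and the 20 called members rose by 0.87 to 2.69 on the log2 scale. Of the 20, 17 belonged to the first group of profiles. That group was formed on the same 8 pools, so this overlap is no separate support. These calls depended on single pools. Leaving out unrelated pool 1, 2 or 3 left 7, 5 or 0 of them. Leaving out isolated pool 1, 2 or 3 gave 0, 37 or 0 calls. Over all loci, 807 calls became 279, 101 or 20 without unrelated pool 1, 2 or 3. They became 16, 1714 or 7 without isolated pool 1, 2 or 3. The dependence was thus not particular to the members. The members' median difference stayed between 0.35 and 0.65 whichever of the 8 pools was left out.

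XLOC_009335 had the smallest adjusted p in this comparison. It was at 1.88, 1.68 and 2.17 CPM in unrelated pools 1 to 3, against 0.289, 0.413 and 0.162 CPM in isolated pools 1 to 3. The groups were far apart, with a log2 fold change of 2.69 ± 0.34 (SE) and an edgeR adjusted p of 0.0108. In brother pools 2 and 3 it was at 0.451 and 0.817 CPM, and in brother pool 1 at 15.2 CPM. XLOC_016247 was at 15.4, 15.5 and 13.9 CPM in unrelated pools, against 5.36, 8.26 and 4.47 CPM in isolated pools (log2 difference 1.28 with an SE of 0.18; edgeR adjusted p = 0.0154). It stood at 8.15 and 9.86 CPM in brother pools 2 and 3 and at 75.1 CPM in brother pool 1. The most abundant member, XLOC_010578, was also called, at 1.51 ± 0.27 on the log2 scale (edgeR adjusted p = 0.023), and XLOC_016666 was not (0.47 ± 0.18; edgeR adjusted p = 0.137).

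Brother pools 2 and 3 against isolated pools gave calls in both directions. Of 206 members, 8 were higher and 4 were lower (edgeR adjusted p under 0.05), or 3.88% and 1.94% of those tested, where 7.26% of all loci were called higher and 8.8% lower. The median log2 difference was 0.10 over the members and -0.01 over all loci. Of the 8 higher members, 7 belonged to the first group of profiles. Of the 4 lower members, 3 belonged to the second group and 1 to the third. The groups were formed on these same pools, so the overlap is again no separate support. The total of 12 became 5, 18 or 3 when isolated pool 1, 2 or 3 was left out. In the same fits the 2494 calls over all loci became 1725, 2408 or 1298. Brother pools 2 and 3 lay apart, and the sign of the members' median difference depended on them. The median was 0.32 without brother pool 2 and -0.37 without brother pool 3. The called loci named below were picked from those whose pools did not overlap. That both brother pools lay on the same side of the isolated pools in them follows from this choice.

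XLOC_010214 was at 2.65 and 3.05 CPM in brother pools 2 and 3, against 1.41, 1.63 and 1.23 CPM in isolated pools (log2 difference 1.08 with an SE of 0.21; edgeR adjusted p = 0.0086). XLOC_006380 was at 1.56 and 1.33 CPM in brother pools 2 and 3, against 0.802, 0.849 and 0.594 CPM in isolated pools (1.03 ± 0.24 on the log2 scale; edgeR adjusted p = 0.0187). In both, unrelated pools were of a like level, at 2.68 to 3.94 CPM for XLOC_010214 and 1.23 to 1.48 CPM for XLOC_006380. XLOC_002414 was lower, at 0.422 and 0.846 CPM in brother pools 2 and 3, against 1.65, 1.71 and 1.46 CPM in isolated pools (-1.26 ± 0.30 on the log2 scale; edgeR adjusted p = 0.0192). XLOC_012016 was at 0.175 and 0.292 CPM in brother pools 2 and 3, against 0.529, 0.79 and 0.836 CPM in isolated pools (-1.54 ± 0.36; edgeR adjusted p = 0.0201). These 2 loci stood at 7.03 and 5.05 CPM in brother pool 1, so brother pool 1 was the highest pool and brother pool 2 the lowest pool of the study for both.

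**Figure D5:**
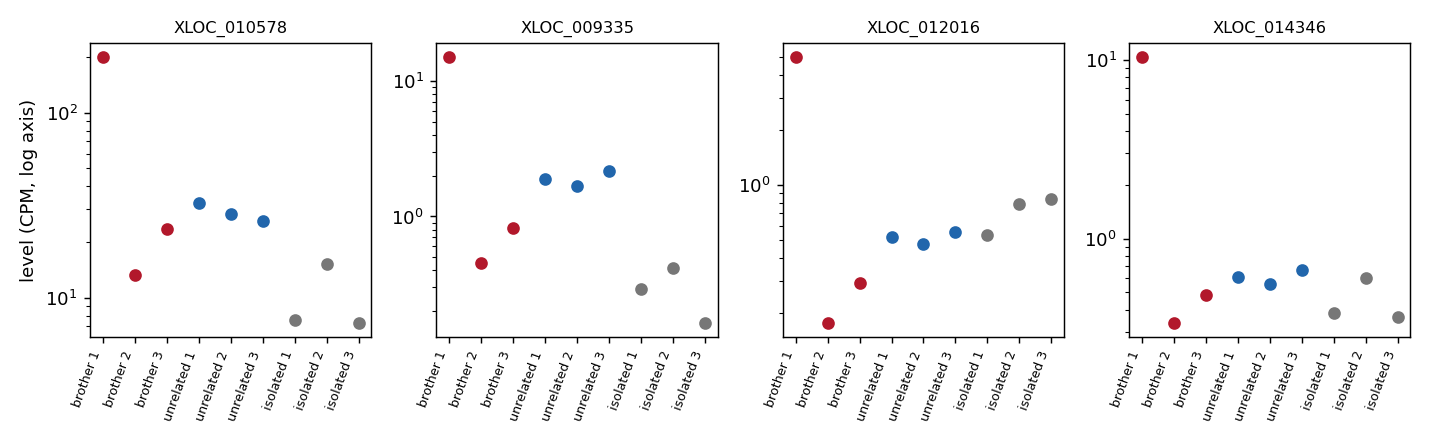
Level in the 9 pools (CPM, log axis; red brother, blue unrelated, grey isolated) of the most abundant member XLOC_010578, of XLOC_009335, higher in unrelated than isolated pools, of XLOC_012016, lower in brother pools 2 and 3 than isolated pools, and of XLOC_014346, with the largest ratio of brother pool 1 to the highest other pool (15.7). Brother pool 1 is highest in each panel, and the order of the other pools differs between panels.

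Brother pools 2 and 3 were lower than unrelated pools in most members, though few passed the test. Of 206 members tested, 2 were called lower (edgeR adjusted p under 0.05), or 0.971%, where 2.15% of all loci were called lower. None was called higher, where 2.49% of all loci were. At an unadjusted p under 0.05 by edgeR 35 members were lower and 0 were higher, where 12.7% of all loci were lower and 11.4% higher. DESeq2 called 12 of 189 members lower and 0 higher, where it called 758 of 14622 loci lower and 919 higher. The median log2 difference was -0.50 over the members, with 29 of 206 above 0, and -0.02 over all loci. It was -0.20 over the members without brother pool 2 and -0.79 without brother pool 3. For these fits, left with 1 brother pool, only the median is given here. XLOC_009502 was at 0.437 and 0.569 CPM in brother pools 2 and 3, against 1.31, 1.44 and 1.01 CPM in unrelated pools, and its isolated pools were at 0.995, 0.755 and 0.782 CPM. Its log2 fold change was -1.20 ± 0.29 (SE; edgeR adjusted p = 0.0472). XLOC_009335 was the other, at -1.49 ± 0.37 (edgeR adjusted p = 0.0497), and both calls were just within the threshold. No call was left when isolated pool 1 or any 1 of the 3 unrelated pools was dropped. Over all loci, 720 calls became 558 without isolated pool 1 and 550, 119 or 380 without unrelated pool 1, 2 or 3. Dropping isolated pool 2 or 3 gave 4 or 1 members, where 997 or 422 of all loci were called.

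With brother pool 1 in the fit, the contrasts use the values that chose the members. The median log2 difference from isolated pools was then 1.99 for the members and 0.03 for all loci. No member passed the edgeR threshold in any of the 3 comparisons in that fit. Over all loci that fit called 337 for brother against isolated, 0 for unrelated against isolated and 30 for brother against unrelated. Without brother pool 1 these counts were 2494, 807 and 720, so the loss of calls was not particular to the members.

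The numbers in the identifiers were the one other property of the loci that the table gives. Of the 209 members, 17 (8.13%) carried a number next to that of another member, where 2.46% of all loci carried a number next to that of a member, in 8 runs of at most 3 loci. Genome positions were not used here, and whether such loci are neighbours or pieces of 1 transcript was not tested.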

How the data were processed

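RNA of female heads was read in 18 libraries, 2 technical replicates of 9 pools, as stranded poly(A) libraries in 125 bp pairs, per the labels' protocols. The authors deposited raw counts per XLOC locus, 1 column per library, without normalisation. The submitters' processing notes name Trimmomatic 0.36, TopHat, Cufflinks and HTSeq, with no role or order. For the build, the annotation and the treatment of reads shared by overlapping or near-identical loci, nothing is given in the sources used here. Columns with the name Female were read as the isolated group.

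Technical replicates were summed, giving 62341897 to 103527471 counts per pool. Members were found by the stated rule on CPM of the plain pool total. The members and measures were chosen with earlier results of these data known. Groups were tested without brother pool 1 with edgeR 4.0.16 in R 4.3.3 (glmQLFit, TMM, filterByExpr, a coefficient per group, Benjamini-Hochberg adjustment over all loci, threshold 0.05), with DESeq2 1.42.0 as an alternative. A standard error is the size of the log2 fold change over the root of its F. Covariation used log2(CPM + 0.5), and the fit was tested on simulated counts. Loci named were the 2 with most CPM in brother pool 1, the 2 with the largest ratio, at most 2 called higher and 2 lower per contrast whose pools did not overlap, and the 2 nearest each group's mean profile.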

Additional observations from a re-analysis of the deposited data

How the results depend on the processing

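The number of members followed the limits of the rule. It was 368 at a ratio of 3, 38 at a ratio of 8, 322 from 1 CPM and 95 from 5 CPM. It stayed within 1.5 times of 209 under TMM-scaled library sizes (173), DESeq2 size factors (177) and either technical replicate alone (189 and 194), and leaving out a pool from the 8 gave 209 to 239.

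Members called, against 12 for brother minus isolated, 20 for unrelated minus isolated and 2 for brother minus unrelated, were 2, 0 and 0 in the fit with a replicate block and 0, 0 and 0 with all 9 pools. Over all loci the fit with a replicate block called 1217, 26 and 200, and the fit with all 9 pools called 337, 0 and 30. Of the members at 8 times the highest other pool, 0, 1 and 0 were called. DESeq2 called 19, 30 and 12 of 206, 87 and 189 members with an adjusted p, and 3172, 1896 and 1677 of all loci where edgeR called 2494, 807 and 720. Fitting only the groups compared gave 5 for brother minus isolated. The first technical replicate alone gave 2 and 11 for the comparisons with isolated pools, and the second gave 12 for unrelated minus isolated. Without scaling, brother minus unrelated gave 7, and the 12 calls of brother minus isolated split into 5 higher and 7 lower. Leaving out single pools gave 3 to 18, 0 to 37 and 0 to 4, where 1 brother pool left alone is assumed to vary like the other groups.

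The share of the first component was 79.7% for members of at least 2 CPM and 82.4% in the covariance shared by the technical replicates (chosen after the data were seen), and the median pair r was 0.457 in the second technical replicate. These moved by more than the jackknife error over pools (9.57 percentage points and 0.102). The other settings stayed within it, and leaving out single pools gave 64.0% to 75.3% and 0.484 to 0.604. Counting error limits members under 0.5 CPM, which were left out of the groups of profiles.
Same-numbered pools deviated from their group means with correlations of -0.119 to 0.00425, and not every pool correlated best with its own number. Brother pool 1 was not compared. Without it, brother pools 2 and 3 deviate as mirror images (-0.119 and 0.119 with isolated pool 2), so their values are not independent. Between unrelated and isolated pools, same-numbered pairs lay at -0.0652 to 0.00425, within the -0.0908 to 0.113 of the other pairs. Whether same-numbered pools share a day or batch was not tested.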
